A study of Mus musculus with 6 samples.

Results

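Oligodendrocyte precursor genes and 3 genes of newly formed oligodendrocytes were compared between the prefrontal cortex of BTBR T+ Itpr3tf/J mice and that of C57BL/6J mice. The precursor genes were Pdgfra, Cspg4, Neu4, Sox8, Tnr, Vcan and Ptprz1. The genes of newly formed cells were Enpp6, Bcas1 and Gpr17. Every non-control probe carrying one of these 10 gene names was taken, which gave 24 probes of the 41174 on the array (10 genes of 21156 named). The probes were taken by gene name alone, but the genes were chosen with earlier results of these data known.

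BTBR mice are inbred, lack a corpus callosum and show little social interest, for which they serve as a model of autism. C57BL/6J is a widely used inbred strain. RNA came from the whole prefrontal cortex of 3 untreated male mice per strain, all aged 5 months, and each mouse had 1 single-colour Agilent array. The labels give BTBR T+ Itpr3tf/J as the genotype of the BTBR samples but C57BL/6J as their background, and C57BL/6J samples as wild type. The samples are bulk tissue, so fewer cells of a type and less RNA per cell cannot be told apart.

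Oligodendrocyte precursors divide under platelet-derived growth factor, which acts through the receptor encoded by Pdgfra, and carry the NG2 proteoglycan encoded by Cspg4. As they leave the cell cycle and start to differentiate they pass through a short premyelinating stage. Enpp6, Bcas1 and Gpr17 mark that transition, after which the cells make myelin. In adult mouse cortex precursors persist and new oligodendrocytes keep forming.

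Of the 24 probes, 20 entered the test, which required a signal well above background on 3 or more of the 6 arrays, whichever the strain. They were 14 probes of the precursor genes and 6 of the newly formed genes, and 16 of the 20 were well above background on all 6 arrays. The other 4 probes, 1 of Cspg4 and 3 of Vcan, were not tested. All 10 genes had at least 1 tested probe. Levels are log2 signals relative to each array's 75th percentile, so 0 is that percentile. A probe's level depends on its own hybridisation, so levels were compared between arrays and not between probes.

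The probes were 60 bases long. The 5 printed here are the second Enpp6 probe, the probes of Neu4 and Tnr, whose strains did not overlap, and 1 further probe each of the receptor genes Pdgfra and Ptprz1, neither of which passed the test. All are 5′ to 3′ and in lower case, with the letters of the deposited files.
Enpp6: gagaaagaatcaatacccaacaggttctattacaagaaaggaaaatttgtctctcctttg
Neu4: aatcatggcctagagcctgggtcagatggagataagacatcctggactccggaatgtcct
Pdgfra: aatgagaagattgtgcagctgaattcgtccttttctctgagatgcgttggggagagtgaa
Ptprz1: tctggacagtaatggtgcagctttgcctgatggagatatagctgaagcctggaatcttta
Tnr: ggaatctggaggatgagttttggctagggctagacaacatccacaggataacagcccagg

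In mm9, the build of the files, all 5 lie on the plus strand. The Enpp6 probe is at chr8:48154284-48154343, the Neu4 probe at chr1:95921574-95921633 and the Pdgfra probe at chr5:75559613-75559672. The Ptprz1 probe is at chr6:23002046-23002106. The Tnr probe is at chr1:161844737-161849107, a span of 4371 bases for a 60-base probe, so it crosses an intron. Exon and UTR assignments were not used here.

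Between 68.2% and 74.5% of probes per array were well above background. The arrays lay on 2 slides, with replicates 1 and 2 of both strains on slide 1 and replicate 3 of both on slide 2. C57BL/6J 3 stood apart in striatal markers (Drd1, Drd2 and 5 others), though not in the brightest Adora2a probe (-0.29, against -0.11 on BTBR 2). Their summed signal, relative to the 75th percentile, was 6.446 to 16.2 on the BTBR arrays and 9.025 to 82.58 on the C57BL/6J arrays, and all 7 were well above background on every array. C57BL/6J 3 had the highest of these sums and BTBR 2 the next highest, so the main results are also given without these 2 arrays. Neuron markers, as a check of the tissue, were well above background on every array for 6 of 6 genes, as were astrocyte markers for 9 of 9 and mature oligodendrocyte markers for 16 of 16.

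Enpp6 was the only member that passed the test, and it was lower in BTBR. The precursor genes stayed close to 0, with 7 of 14 tested precursor probes higher and 7 lower on average in BTBR. In all, 1 of the 20 tested probes passed at a limma adjusted p under 0.05, which is 5% of them, against 5.44% of all 30011 tested probes (1632). Among all tested probes 2.19% were higher and 3.25% lower in BTBR. The members as a group thus passed at a share near that of the whole array. An unadjusted p under 0.05 was found for 3 of the 20 probes, against 16.8% of all probes. The strains did not overlap for 4 of the 20 probes (20%), against 22.8% of all probes.

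**Figure D1:**
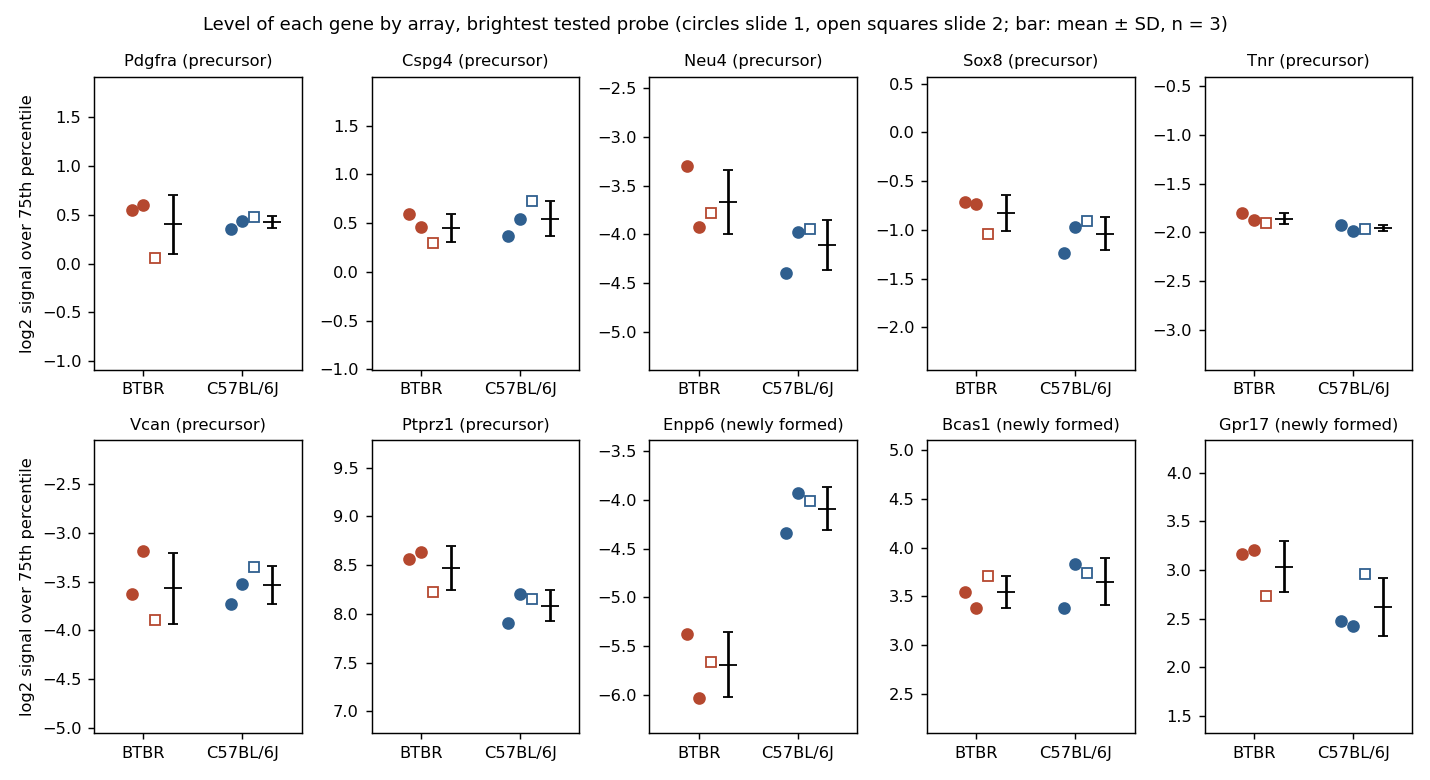
Level of each gene on each array, for the brightest tested probe of the gene. The vertical axis is the log2 signal relative to the array's 75th percentile and spans 3 log2 units in each panel, BTBR arrays are on the left and C57BL/6J arrays on the right, circles are slide 1, open squares slide 2, and bars are mean ± SD over 3 mice. Enpp6 lies between -6.04 and -5.37 in BTBR, below all C57BL/6J arrays at -4.34 to -3.93.

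Enpp6 encodes a choline-specific glycerophosphodiesterase, an enzyme that releases phosphocholine from glycerophosphocholine and related lipids, and it is a marker of newly formed oligodendrocytes. Its brighter probe is at chr8:48179484-48179543 in mm9, on the plus strand. The level of this probe was -5.37, -6.04 and -5.66 in BTBR 1, 2 and 3, against -4.34, -3.93 and -4.01 in C57BL/6J 1, 2 and 3. Every BTBR array was lower than every C57BL/6J array. The means were -5.69 ± 0.33 in BTBR and -4.09 ± 0.22 in C57BL/6J (SD, n = 3 each). The signal was 3.03-fold lower in BTBR (log2 difference -1.60 ± 0.20 SE, 95% interval -2.09 to -1.11, limma adjusted p = 0.00703). The difference was -1.57 within slide 1 and -1.65 within slide 2.

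The Enpp6 signals were close to background, most of all in BTBR. The mean spot signal was 75.2, 72.5 and 72.8 intensity units in BTBR, against 146, 148 and 130 in C57BL/6J, over a local background of 24 to 31 units. After the scanner software's background subtraction the signals were 22.1, 13.1 and 23.4 units in BTBR and 79.4, 81.7 and 75.1 units in C57BL/6J. The probe was well above background on 2 of 3 BTBR arrays and on 3 of 3 C57BL/6J arrays. On BTBR 2, the array where it was not, its level lay 0.21 below the lowest level of any probe well above background there. Without BTBR 2 the difference was -1.43 (limma adjusted p = 0.0172), and without both BTBR 2 and C57BL/6J 3 it was -1.39 (adjusted p = 0.0462). With normexp background correction from the raw spot signals, which adds an offset of 50 units, it was -0.78 and did not pass (adjusted p = 0.962).

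The second Enpp6 probe, printed above, starts 1356 bases nearer the 5′ end of the transcript than the brighter one and has the same GC content of 35%. Its level was -5.89, -7.55 and -6.26 in BTBR, against -5.90, -5.04 and -5.05 in C57BL/6J. BTBR 1 lay just above C57BL/6J 1, so the strains overlapped, and BTBR 2 was again not well above background. The difference was -1.24 ± 0.46 SE and did not pass the test over all probes (limma adjusted p = 0.248). It was -1.25 within slide 1 and -1.21 within slide 2. When the probes of each gene were averaged, the Enpp6 difference was -1.42 (adjusted p = 0.0677), which also missed the threshold.

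**Figure D2:**
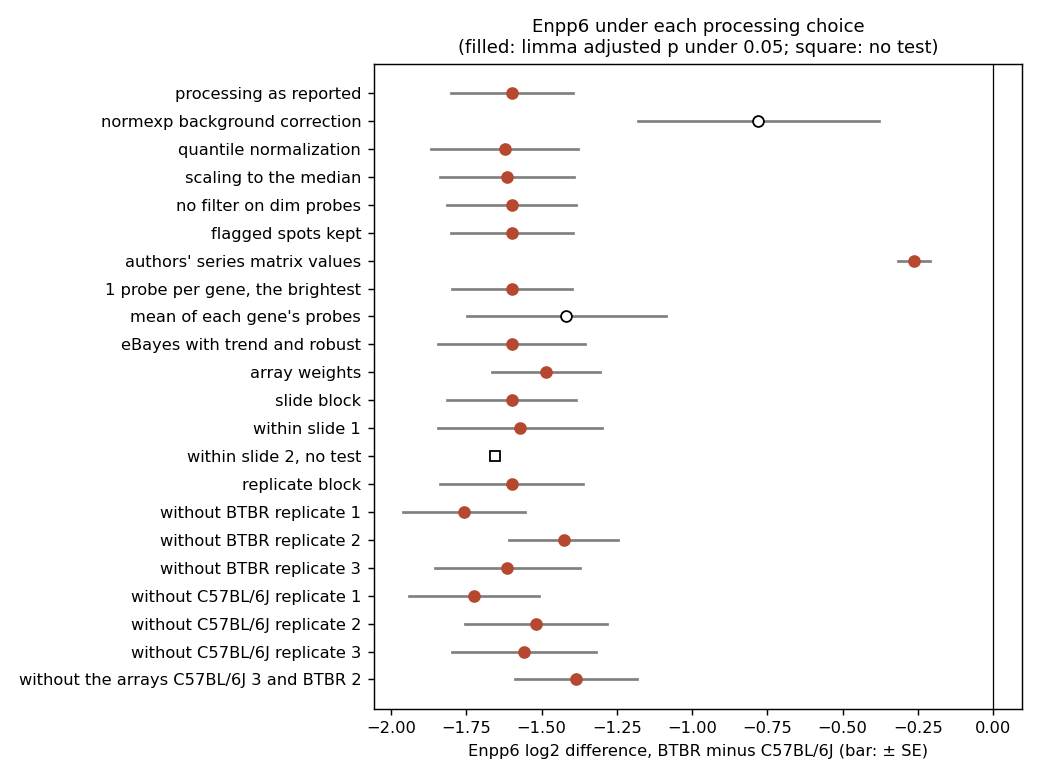
Enpp6 difference between strains under each processing choice. The horizontal axis is the log2 difference, BTBR minus C57BL/6J, with bars of ± 1 SE, filled points have a limma adjusted p under 0.05, open points do not, and the square has no test. All values are below 0, from -1.76 without BTBR 1 to -0.26 with the authors' matrix values.

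Bcas1, a gene of newly formed and early myelinating oligodendrocytes, showed no such difference. The level of its brighter probe was 3.54, 3.38 and 3.71 in BTBR, against 3.38, 3.83 and 3.74 in C57BL/6J. The strains overlapped, with BTBR inside the C57BL/6J range. The difference was -0.10 ± 0.16 SE (limma adjusted p = 0.833, 95% interval -0.49 to 0.28), and the other Bcas1 probe gave -0.11 (adjusted p = 0.881).

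Gpr17 encodes a G protein-coupled receptor that is present for a short time in committed precursors and slows their maturation. The level of its brighter probe was 3.17, 3.20 and 2.74 in BTBR, against 2.48, 2.43 and 2.96 in C57BL/6J. BTBR was higher on slide 1 and lower on slide 2, where C57BL/6J 3 lay above BTBR 3. Over all 6 arrays the difference was 0.41 ± 0.20 SE (limma adjusted p = 0.382). Within slide 1 it was 0.73 and passed the test (adjusted p = 0.0376), and on slide 2 it was -0.22, with 1 mouse per strain and no test. Array weights, which give less weight to arrays that deviate more, gave 0.62 (adjusted p = 0.0362).

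The second Gpr17 probe, well above background on 4 of 6 arrays, followed the same order by slide. Its difference was 0.47 ± 0.50 SE over all arrays (limma adjusted p = 0.737), with 1.05 within slide 1 and -0.69 on slide 2. Without BTBR 3 it was 1.07 and passed (adjusted p = 0.0397).

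The difference between the strains for Enpp6 was set against that of a precursor gene and of the other newly formed genes, as log2 signals subtracted within each array. Enpp6 minus Gpr17 was lower in BTBR by a log2 difference of -2.01, Enpp6 minus Pdgfra by -1.58 and Enpp6 minus Bcas1 by -1.49. In each of the 3 comparisons all BTBR arrays lay below all C57BL/6J arrays. Every comparison reuses the Enpp6 values, which alone separated the strains, so these are not independent results. The two-sided exact permutation p was 0.1 each (also 0.1 after Benjamini-Hochberg adjustment over the 3), the smallest that 3 arrays against 3 allow. Over all 9 other members the same difference was between -2.04 (against Neu4) and -1.49 (against Bcas1).

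**Figure D3:**
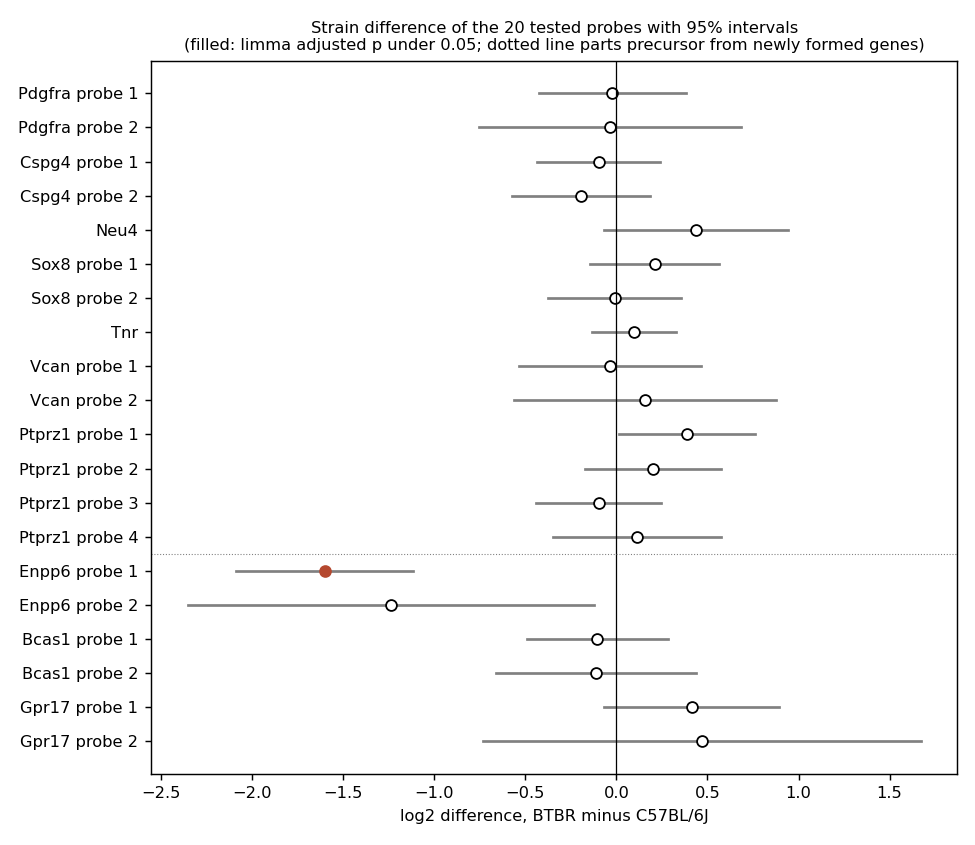
Strain difference of each of the 20 tested probes. The horizontal axis is the log2 difference, BTBR minus C57BL/6J, bars are 95% intervals, filled points have a limma adjusted p under 0.05, and the dotted line parts the 14 precursor probes above from the 6 newly formed probes below. Only the brighter Enpp6 probe is filled, at -1.60.

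None of the 14 precursor probes passed the test, in either direction. Their median difference was 0.04, against 0.04 over all 30011 tested probes, and the values ran from -0.20 (a Cspg4 probe) to 0.44 (Neu4). The smallest limma adjusted p was 0.280, and an unadjusted p under 0.05 was found for 1 of the 14. Taken one by one, the 95% intervals reached from -0.76 at the lowest to 0.94 at the highest, and all 14 left out a 2-fold decrease. The SE of these probes was 0.096 to 0.30.

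Pdgfra encodes the alpha receptor for platelet-derived growth factor, the main mitogen receptor of precursors. The level of its brighter probe was 0.55, 0.60 and 0.05 in BTBR, against 0.36, 0.43 and 0.48 in C57BL/6J. BTBR 1 and BTBR 2 were the highest of the 6 arrays and BTBR 3 the lowest. The difference was -0.02 ± 0.17 SE (limma adjusted p = 0.973), with 0.18 within slide 1 and -0.43 on slide 2. The printed Pdgfra probe, well above background on 5 of 6 arrays, differed by -0.03 (adjusted p = 0.977).

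Cspg4 encodes the core protein of NG2, a transmembrane chondroitin sulfate proteoglycan that pericytes also carry. The level of its brightest probe was 0.59, 0.46 and 0.30 in BTBR, against 0.37, 0.54 and 0.72 in C57BL/6J. The strains overlapped, and the difference was -0.10 ± 0.14 SE (limma adjusted p = 0.815). The second tested probe gave -0.20 (adjusted p = 0.637). Of the 8 pericyte markers 0 passed, and their summed signal was 20.08 to 22.21 in BTBR and 21.22 to 23.02 in C57BL/6J.

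Neu4, a sialidase that removes sialic acid from glycoproteins and gangliosides, had the highest difference of the precursor genes. Its single probe was at -3.30, -3.93 and -3.78 in BTBR, against -4.40, -3.97 and -3.94 in C57BL/6J. The strains did not overlap, although BTBR 2 lay only just above C57BL/6J 3. The signal was 1.36-fold higher in BTBR (log2 difference 0.44 ± 0.21 SE) and did not pass the test (limma adjusted p = 0.376).

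Sox8, a SoxE transcription factor that acts beside Sox10 in the oligodendrocyte lineage, had levels of -0.71, -0.73 and -1.04 in BTBR, against -1.23, -0.97 and -0.91 in C57BL/6J. BTBR 3 fell among the C57BL/6J arrays. The difference was 0.21 ± 0.15 SE (limma adjusted p = 0.576), and the other Sox8 probe gave -0.01 (adjusted p = 0.990).

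Tnr encodes tenascin-R, an extracellular matrix glycoprotein made by oligodendrocyte lineage cells and some neurons. Its single probe was at -1.80, -1.87 and -1.90 in BTBR, against -1.92, -1.98 and -1.96 in C57BL/6J. The BTBR arrays were all higher, by a margin of hundredths of a log2 unit at the nearest. The difference was 0.10 ± 0.10 SE and did not pass the test (limma adjusted p = 0.709).

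Vcan encodes versican, a large chondroitin sulfate proteoglycan. The level of its brightest probe was -3.63, -3.18 and -3.90 in BTBR, against -3.73, -3.52 and -3.35 in C57BL/6J. Both the highest and the lowest array were BTBR. The difference was -0.03 ± 0.21 SE (limma adjusted p = 0.965). The second tested probe, which matches another Vcan transcript, gave 0.16 (adjusted p = 0.871), with 0.61 within slide 1 and -0.76 on slide 2.

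Ptprz1 encodes a receptor-type tyrosine phosphatase whose secreted ectodomain is phosphacan, and astrocytes and precursors both express it. Its brightest probe, which the files describe as matching the phosphacan short isoform, was at 8.56, 8.64 and 8.22 in BTBR, against 7.90, 8.20 and 8.15 in C57BL/6J. The strains did not overlap, with BTBR 3 next to C57BL/6J 2. The difference was 0.39 ± 0.15 SE (limma adjusted p = 0.280), with 0.55 within slide 1 and 0.07 on slide 2. It depended on the scaling, with 0.11 under quantile normalization (adjusted p = 0.658) and 0.08 in the authors' matrix values (adjusted p = 0.414). Before scaling to the 75th percentile the signals overlapped, at 342265 to 352897 intensity units in BTBR and 343452 to 384925 units in C57BL/6J. The other 3 Ptprz1 probes, the printed one first, gave 0.20, -0.10 and 0.11 (adjusted p = 0.620, 0.824 and 0.848). Among 9 astrocyte markers 1 passed, which was Gfap, the astrocyte intermediate filament, at -1.21 (adjusted p = 0.0153). The remaining Gfap probes gave -0.57 and -0.46 and did not pass (adjusted p = 0.155 and 0.342). The summed astrocyte signal was 248.6 to 268.5 in BTBR and 248.6 to 294.1 in C57BL/6J, and the part of astrocytes in the Ptprz1 values was not tested.

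Most, but not all, tested probes of the members other than Enpp6 differed in direction between the slides. Within slide 1, 15 of their 18 tested probes were higher in BTBR, against 56.6% of all tested probes. Within slide 2, 15 of the 18 were lower in BTBR, against 50% of all tested probes. For 12 of them BTBR was higher within slide 1 and lower within slide 2, which held for 27.7% of all tested probes. These probes share genes and arrays and are not independent, slide 2 has 1 mouse per strain, and the difference between slides was not tested.

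BTBR 3 was the lowest BTBR array for 15 of these 18 probes, against 47.6% of all tested probes, and the lowest of all 6 arrays for 9 of them, against 21.1%. C57BL/6J 3 was the highest C57BL/6J array for 12 of the 18, against 35.6%. Striatal markers also differed by slide, with a median log2 difference of 0.32 within slide 1 and -3.80 within slide 2. Their part in the slide pattern was not tested. Without C57BL/6J 3 and BTBR 2 the number of member probes past the test was still 1.

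**Figure D4:**
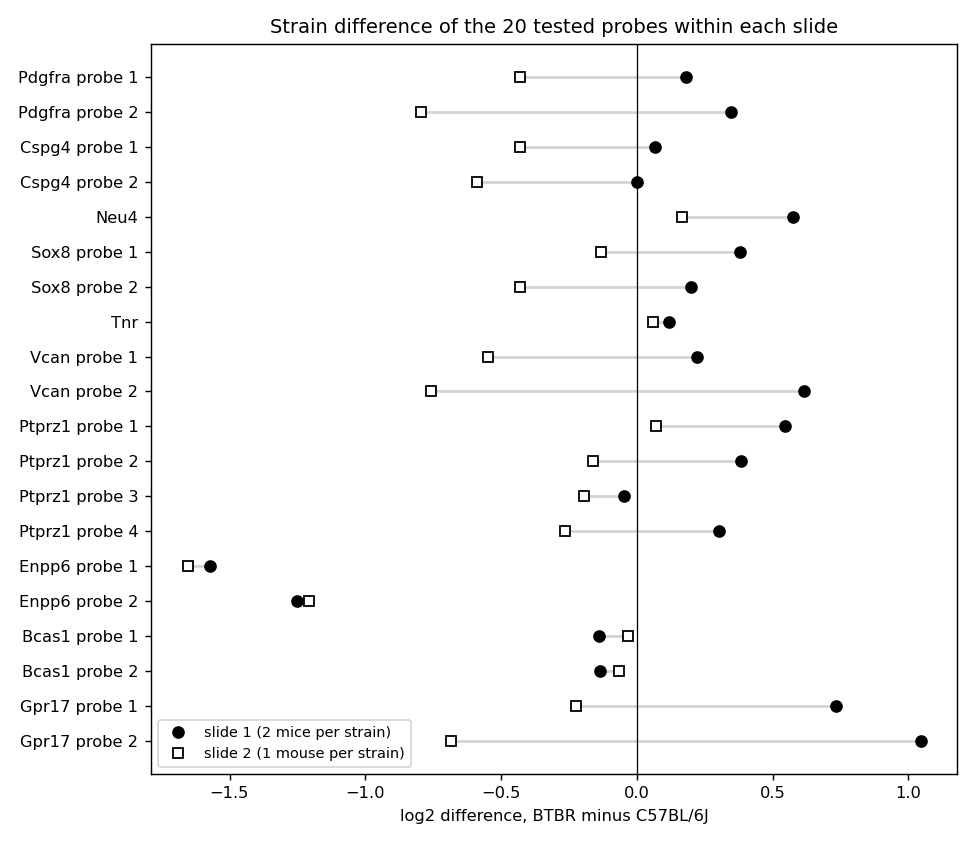
Strain difference of each of the 20 tested probes within each slide. The horizontal axis is the log2 difference, BTBR minus C57BL/6J, filled circles are slide 1 with 2 mice per strain and open squares slide 2 with 1 mouse per strain. The squares lie left of 0 for most probes while the circles lie right of it, and both Enpp6 probes lie left of 0 on both slides.

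Other genes of the lineage were compared through lists, using the brightest tested probe of each gene. Of all 16548 named genes, 5.29% passed, with 2.03% higher and 3.26% lower in BTBR, and the median difference was 0.01. Of 12 other precursor genes 0 passed, with 5 higher and 7 lower on average and a median of -0.07. The smallest p were those of Sox10, a transcription factor of all oligodendrocyte lineage stages (-0.56, limma adjusted p = 0.236), and Lhfpl3 (-0.60, adjusted p = 0.391). Matn4, a matrilin, was at 0.30 (adjusted p = 0.400) and Pcdh15, a protocadherin, at 0.33 (adjusted p = 0.417). Their summed signal was 12.07 to 13.4 in BTBR and 12.91 to 16.77 in C57BL/6J.

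Of 12 other genes of newly formed oligodendrocytes 10 were tested, and 0 passed. The remaining 2, Zfp488 and Kif19a, were not found by name among the probes. The median was -0.08, with 4 higher and 6 lower on average. The summed signal of the 10 was 7.711 to 7.991 in BTBR and 8.132 to 8.857 in C57BL/6J. These ranges did not overlap, and their difference was not tested. Frmd4b, which encodes a FERM domain protein, came nearest at -0.52 (limma adjusted p = 0.0593), followed by Cemip2 at -0.60 (adjusted p = 0.128). Elovl7, a fatty acid elongase, was at -0.31 (adjusted p = 0.473) and Tcf7l2, a Wnt effector, at -0.16 (adjusted p = 0.758).

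Of 16 mature oligodendrocyte genes 7 fell and 0 rose in BTBR by the test on the brightest probe of each, and the other 9 did not pass. The mean of the brightest probe was lower in BTBR for all 16. Their median difference was -0.65, which took the values -0.70 on slide 1 and -0.60 on slide 2. Those that fell were Mag and Opalin, myelin membrane proteins (-0.93, limma adjusted p = 0.0171, and -0.90, adjusted p = 0.0255), Trf, the iron carrier transferrin (-1.09, adjusted p = 0.0371), and Fa2h, a fatty acid hydroxylase of myelin lipids (-0.86, adjusted p = 0.0259). The others were Aspa, which cleaves N-acetylaspartate (-0.65, adjusted p = 0.0254), Cldn11, a tight junction protein of myelin (-0.64, adjusted p = 0.0421), and the transcription factor Nkx6-2 (-0.60, adjusted p = 0.0272). The summed signal of the 16 was 120.6 to 137.8 in BTBR and 168.3 to 208 in C57BL/6J, so the strains did not overlap. Its part in the Enpp6 difference was not tested.

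Probes of 1 mature gene did not always give the same result. Over all 26 tested probes of these genes, 25 had a lower and 1 a higher mean in BTBR, and 11 fell and 0 rose by the test. The exception in sign was an Mbp probe, of myelin basic protein, at 0.47 (limma adjusted p = 0.134), while the brightest Mbp probe was at -0.35 (adjusted p = 0.319). Mobp, another myelin gene, was at -0.03 with its brightest probe (adjusted p = 0.949) and at -0.98 and -1.83 with the others (adjusted p = 0.0576 and 0.0109). Mog, a protein of the outer myelin surface, was at -0.67 with its brightest probe (adjusted p = 0.0862) and at -0.90 with the other (adjusted p = 0.00590). These probes were chosen after their values were seen.

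The number of mature calls depended on single mice. Leaving out BTBR 1 or C57BL/6J 1 gave 0 calls among the 16, leaving out BTBR 2 or C57BL/6J 2 gave 1, leaving out C57BL/6J 3 gave 2 and leaving out BTBR 3 gave 5. Without both C57BL/6J 3 and BTBR 2 there were 0, and with normexp background correction 0. In each of these settings at least 15 of the 16 stayed lower on average.

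**Figure D5:**
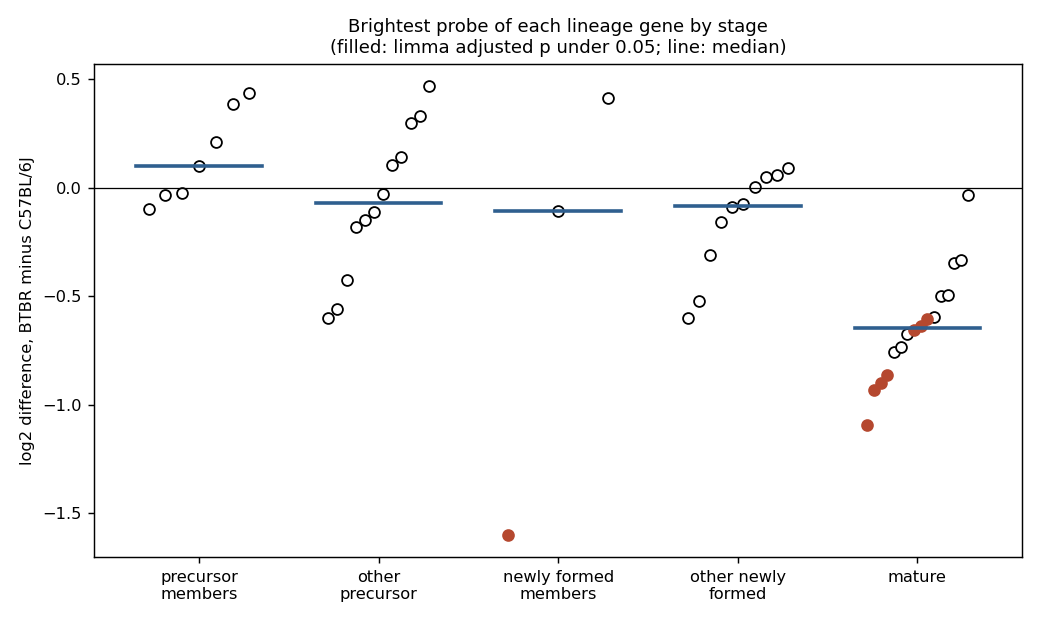
Strain difference of lineage genes by stage. The vertical axis is the log2 difference, BTBR minus C57BL/6J, of each gene's brightest tested probe, filled points have a limma adjusted p under 0.05, and lines are list medians. The medians are 0.10 and -0.07 for the member and other precursor genes, -0.10 and -0.08 for the member and other newly formed genes, and -0.65 for the mature genes. Enpp6, among the newly formed members, is the lowest point of all at -1.60.

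Ligands and partners of the precursor proteins were examined next. None of the 5 genes for PDGF ligands and the beta receptor passed with its brightest probe. Pdgfa, the ligand best known for driving precursors, was at 0.05 (limma adjusted p = 0.900), Pdgfb at 0.53 (adjusted p = 0.129), Pdgfc at 0.23 (adjusted p = 0.536) and Pdgfd at -0.58 (adjusted p = 0.0653). A second Pdgfd probe, matched to another transcript, was well above background on 0 of 3 BTBR arrays and 3 of 3 C57BL/6J arrays. This second probe thus entered the test through the C57BL/6J arrays alone, and no p is given for it. Its signal was at least 12.7-fold lower in BTBR, so the Pdgfd probes were both lower in BTBR on average but differed in size. This lower limit sets the C57BL/6J mean against the higher of the probe's own level and the lowest level well above background on each BTBR array.

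Of 11 matrix partners and Ptprz1 ligands 0 passed, with a median of -0.08. Hapln3, a link protein that binds proteoglycans to hyaluronan, was at 0.73 (limma adjusted p = 0.0754), and the Ptprz1 ligand Mdk, midkine, at -0.32 (adjusted p = 0.175). Of 4 sialidases and SoxE factors 0 passed. Neu2, a cytosolic sialidase, was nearest at -0.76 (adjusted p = 0.0735), followed by Neu3 at -0.08 (adjusted p = 0.899), Sox9 at 0.05 (adjusted p = 0.930) and Neu1 at -0.04 (adjusted p = 0.936).

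Among 12 tested genes of the ENPP family and choline metabolism 3 fell and 0 rose, with a median of -0.03. These were Enpp4 (-0.59, limma adjusted p = 0.0293) and Enpp5 (-0.62, adjusted p = 0.0371), both ectonucleotide pyrophosphatase/phosphodiesterase family members, and the choline transporter Slc44a1 (-0.55, adjusted p = 0.0322). A second Slc44a1 probe gave -0.06 (adjusted p = 0.901). Each of the 3 genes passed in 9 of 20 tested alternatives, and when 1 mouse was left out at most 1 of the list fell. In some alternatives 1 gene of the list rose, namely with array weights, with the slide as a block, within slide 1 and without BTBR 3. The brightest Enpp1 probe was at 0.83 (adjusted p = 0.117). A second Enpp1 probe, well above background on 0 of 3 BTBR and 3 of 3 C57BL/6J arrays, was at least 17.9-fold lower in BTBR. It entered the test through the C57BL/6J arrays alone, so no p is given for it.

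The profile of the brighter Enpp6 probe over the 6 arrays was most like those of Aurka, Jakmip1, Mob3c, Nmral1 and Mecr. Pearson's r was 0.990 to 0.995 over 6 arrays, among 15438 genes well above background on all arrays. With 6 points that share arrays and a strain difference, these values are a description. The log2 differences of the 5 were -0.67 (Jakmip1), -0.76 (Mecr), -0.26 (Aurka), -0.46 (Mob3c) and -0.25 (Nmral1). They were picked by likeness to a probe that was lower in BTBR, so their strain differences are no separate result.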

How the data were processed

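Cy3-labelled RNA of 6 mice was read on single-colour arrays. The deposited scanner files hold spot intensity on a linear scale, written by Agilent Feature Extraction in version 10.7.3.1, per the file headers, or 9.1, per the submitters' processing notes. The authors' deposited matrix holds log2 values with medians of 8.822 to 8.826, whose scaling and centring stay unknown. They correlated with log2 scanner signal at 0.915 to 0.929 and served only as an alternative.

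Processed signals were taken to log2, and the 75th percentile of the array was subtracted. Flagged outlier spots (54 to 107 per array) were left out, spots of a probe were averaged, and 0 probes were saturated. Probes well above background on at least 3 of 6 arrays entered (30011 of 41174). The test was limma's (version 3.58.1, R 4.3.3, lmFit then eBayes) for BTBR minus C57BL/6J, adjusted by Benjamini-Hochberg over all entered probes, at a threshold of 0.05. The data.table package (1.17.8) handled the files. The fit was tested on simulated data. The design text gives 3 mice per group, and precision is limited by how few arrays there are.

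Genes were named by RefSeq accession (27816 probes), symbol (5503) or synonym (380) from a GRCm38.p6 table used for names only, 1233 kept the file's name and 6242 had none. Probe positions are mm9, per the file headers. The members and lists were chosen with earlier results of these data known, so list counts are descriptions. Named genes were all members, up to 4 genes per lineage or pathway list with the smallest p, every gene past the test in a list, and the 5 most like Enpp6. Markers of fibroblasts, neurons, striatum, neuroblasts and microglia were checked too. Alternatives changed background correction, scaling, filter, flags, source, probes per gene, prior, array weights, slide, pairing and mice.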

Additional observations from a re-analysis of the deposited data

How the results depend on the processing

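The brighter Enpp6 probe was lower in BTBR in all alternatives and passed in 18 of 20 tested (limma adjusted p = 0.00321 to 0.962). It missed with normexp (-0.78, adjusted p = 0.962) and with the mean of a gene's probes (-1.42, adjusted p = 0.0677), and without each mouse in turn it was -1.76 to -1.43. With the authors' matrix values it passed, but the difference was only -0.26 (adjusted p = 0.0446). It was not tested when all 6 arrays had to be well above background. The cause was not tested. Normexp also moved the median of all probes to -0.09, against 0.04 as reported. Signal close to background limits what the arrays show for Enpp6.

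Probes past the test numbered 170 with normexp, 938 with 1 probe per gene, 969 with the mean of probes, 3928 with array weights (whose estimation stopped before convergence), 922 with the replicate block, 1008 without C57BL/6J 3 and BTBR 2, and 858 to 1472 without each mouse. Member probes past the test numbered 0 with normexp and with all arrays well above background, 2 with array weights and within slide 1, and 1 to 2 without each mouse.

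Deviations of same-numbered mice correlated at r = 0.0282, -0.1698 and -0.0786, within the range of the other pairs (-0.2127 to 0.267). With 3 arrays per strain these values cannot decide whether the numbers pair mice. With the replicate block 1 member probe passed, Enpp6 (adjusted p = 0.0399), and 0 of the 16 mature oligodendrocyte genes. Scaling to the median gave 4 of the 16, no filter on dim probes 1, within slide 1 gave 3 and array weights 12.

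Of the 19 member probes other than the brighter Enpp6 probe 2, both of Gpr17, passed in any setting, and 17 took the opposite sign in at least 1, 3 of them only within slide 2, which has no test. None of the 36 reversed values outside slide 2 passed the test. With normexp the Bcas1 difference was 0.00013, Neu4 -0.033, Tnr -0.017, and second probes of Gpr17 -0.32, Ptprz1 -0.22 and Vcan -0.28. The matrix gave 0.0095 for the second Pdgfra probe and the mean of probes 0.061 for Vcan. Array weights gave Cspg4 0.0054, Pdgfra 0.071 and 0.31, and Sox8 0.092. Within slide 1 Cspg4 was 0.068 and 0.0022, Pdgfra 0.18 and 0.35, Sox8 0.20 and Vcan 0.22. Without C57BL/6J 3 and BTBR 2 Bcas1 was 0.022 and 0.16, Pdgfra 0.093 and Sox8 0.062. Without each mouse the ranges were -0.31 to 0.045 (Bcas1), -0.12 to 0.15 and -0.33 to 0.24 (Pdgfra), -0.22 to 0.0058 and -0.050 to 0.25 (Ptprz1), -0.092 to 0.12 (Sox8), and -0.23 to 0.13 and -0.080 to 0.48 (Vcan).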

Other observations

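Other cell types were described by the brightest tested probe of each marker. Of 7 microglia markers 1 rose, the fractalkine receptor Cx3cr1 (1.22, limma adjusted p = 0.00263), whose second probe gave 0.23 (adjusted p = 0.479). The summed microglial signal was 20.87 to 23.23 in BTBR and 17.49 to 21.97 in C57BL/6J. Of 5 neuroblast markers, such as Dcx and Dlx1, 0 passed and all 5 had a higher mean in BTBR, with a median of 0.63. Without BTBR 2 that median was 0.35, and without both C57BL/6J 3 and BTBR 2 it was 0.22, with 4 of 5 higher. With normexp it was 0.28 and with the matrix values 0.32. Their summed signal was 2.635 to 4.201 in BTBR and 2.007 to 2.485 in C57BL/6J. The Sox11 probes disagreed in sign, with 0.63 for the brightest and -1.01, -0.45, 0.45 and 0.74 for the others. None of these others passed (limma adjusted p = 0.421, 0.659, 0.717 and 0.428). Of 8 fibroblast markers 0 passed (median -0.30), and of 6 neuron markers 0 passed (median 0.03). Among pericyte markers the brightest Abcc9 probe, of a potassium channel subunit, was at 0.36 (adjusted p = 0.194), while its other 2 probes were at 1.02 and 1.05 (adjusted p = 0.0151 and 0.00832).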
